A study of Mus musculus with 25 samples.

Results

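The genes described here are 10 members of the machinery that makes peptides and loads them onto major histocompatibility complex (MHC) class I molecules: Tap1, Tap2, Tapbp, Tapbpl, H2-Q4, B2m, Psmb8, Psmb9, Psmb10 and Psme2. They were chosen by gene symbol on rows that the platform annotation gives to 1 symbol only, and all 10 were found among the 19938 such genes. A value in every group was available for 9 of them, of 13541 genes with a value in every group.

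MHC class I molecules show short peptides from inside the cell to CD8+ T cells. The proteasome cuts proteins into peptides, the transporter TAP moves them into the endoplasmic reticulum, and a loading complex places them on a heavy chain paired with beta-2 microglobulin. Interferons are known to induce most of these genes, and the inducible catalytic subunits then replace the standard ones, which gives the immunoproteasome. CD8a+ cDC are known for showing peptides from engulfed material on class I molecules, a process called cross-presentation.

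RNA of sorted Peyer's patch cells, the lymphoid follicles of the small intestine, was measured on 25 Affymetrix Mouse Gene ST arrays from female wild-type C57BL/6 mice aged 6 to 8 weeks. Untreated mice gave 5 arrays of CD11b+ conventional dendritic cells (cDC) and 3 each of DN cDC, CD8a+ cDC, TIM-4- LysoMac and TIM-4+ LysoMac. Mice taken 9 h after oral R848, an agonist of the receptor TLR7, gave 3 arrays of CD11b+ cDC and 5 of CD8a+ cDC. By the sort labels the cDC were CD11c-high, MHC class II positive and BST2-. CD11b+ cDC were SIRPa+ and CD11b-intermediate, DN cDC were SIRPa+ and lacked CD11b, CD8a and CD4, and CD8a+ cDC lacked SIRPa. LysoMac, the patch macrophages, were CD11c-high, MHC class II low, SIRPa+, BST2+ and CD4+. Each replicate pooled 42 mice, so animals cannot be told apart within an array, and fewer cells of a type cannot be told apart from less RNA per cell. Titles of R848 samples mention the steady state as well, and the treatment label was used to place them.

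The deposited row names fit only the 8 R848 arrays, and the rows of the 14 untreated CD11b+, DN and LysoMac arrays and of the 3 untreated CD8a+ arrays were brought into that order by their levels. All 10 members had an accepted row in the set of 14 arrays, and all but Tapbpl had one in the untreated CD8a+ arrays. Each accepted member kept its row when the 10 member rows were left out of the matching and when the other R848 cDC type was used as the template. A comparison that crosses these sets, which means every R848 response and CD8a+ against CD11b+ cDC at rest, cannot tell the set from the group. The matching used the same pairs of groups, so it can favour small responses.

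Arrays 4 and 5 stood apart from arrays 1 to 3 in both groups of 5. In untreated CD11b+ cDC they correlated at 0.978 to 0.982 with the other arrays of the group, against 0.994 with each other and at least 0.988 among arrays 1 to 3. In R848-treated CD8a+ cDC these values were 0.982 to 0.987, 0.988 and at least 0.991. Over the members, 8 of 10 did not overlap between both subsets in untreated CD11b+ cDC, against 54.2% of 16013 genes. Psmb10 was 0.87 log2 units higher in arrays 4 and 5, Tapbp 0.74 higher, and H2-Q4 lower by a difference of -0.47. In R848-treated CD8a+ cDC, 6 of 10 members did not overlap, against 27.3% of 19938 genes, and the difference was -0.66 for Psme2, -0.59 for Psmb10 and -0.53 for Psmb9. Member calls that change without these arrays are given with and without them. Other member values are given without them in part, and other pathway genes only with them.

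At rest, defining markers separated CD8a+ cDC and LysoMac from the other groups. Xcr1, a receptor of CD8a+ cDC, had a mean log2 signal of 10.9 in CD8a+ cDC and of at most 3.91 in every other untreated group, Mertk, a macrophage receptor, had 8.84 in TIM-4+ and 8.46 in TIM-4- LysoMac and at most 3.98 elsewhere, and Timd4 had 10.8 in TIM-4+ against 5.66 in TIM-4- LysoMac. After R848, Xcr1 was at 8.59 in CD8a+ cDC and the CD11b gene Itgam was at 4.20 in CD11b+ cDC, against 7.07 at rest. Of 6 CD11b+ cDC markers with a value in every group, 4 fell and 1 rose after R848 in CD11b+ cDC (median -2.10). Of 5 such CD8a+ cDC markers, 4 fell and 0 rose in CD8a+ cDC (median -2.32). Of 5 B cell markers measured in all groups, 5 rose after R848 in CD11b+ cDC (median 1.83) and 4 in CD8a+ cDC (median 1.21). Of 5 such plasma cell markers 3 rose in CD11b+ (median 2.04) and 4 in CD8a+ cDC (median 1.92). T cell markers moved apart, with 1 of 5 rising and 4 falling in CD11b+ cDC (median -1.32) and 4 of 5 rising in CD8a+ cDC (median 0.93). All measured T cell markers had means under 6 in untreated CD8a+ cDC and in both R848 groups. Their list mean was 4.28 in untreated CD8a+, 4.46 in R848-treated CD11b+ and 4.99 in R848-treated CD8a+ cDC. Array medians were 4.29 to 4.60. The B cell receptor gene Cd79a alone went from 7.54 to 9.37 and from 4.01 to 7.86. DN cDC had the highest stromal and endothelial mean, 6.64 against 4.01 to 4.77 in the other groups. The part of these cells in the results below was not tested.

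The promoter sequences of 4 members are shown because they hold the interferon and NF-kB motifs found among the members, or because 2 members share 1 stretch. They come from RefSeq, build GRCm38.p6, and run from 250 bases before to 50 bases after the annotated start. The table held 9 such windows for 8 members, and Tap2 and Tapbpl are named only. Capitals mark motif matches on either strand: the interferon-stimulated response element (ISRE, GAAANNGAAA), the gamma-activated site (GAS, TTCNNNGAA) and the NF-kB site. The B2m window (chr2:122147437-122147736, plus strand) holds an ISRE match at bases 112 to 121 and an NF-kB match on the minus strand at bases 125 to 134. The H2-Q4 window (chr17:35379367-35379666, plus strand) holds NF-kB matches at bases 77 to 86 and 78 to 87, which overlap. The Psmb8 window (chr17:34197945-34198244, plus strand) holds a GAS match at bases 154 to 162. The Tap1 window (chr17:34187306-34187605, plus strand) holds none of the 3 motifs.
B2m: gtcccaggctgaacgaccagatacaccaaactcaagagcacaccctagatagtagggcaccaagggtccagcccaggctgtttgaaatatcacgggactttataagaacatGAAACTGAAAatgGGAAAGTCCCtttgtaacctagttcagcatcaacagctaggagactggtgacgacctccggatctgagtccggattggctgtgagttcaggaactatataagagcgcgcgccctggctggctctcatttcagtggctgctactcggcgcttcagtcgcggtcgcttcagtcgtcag
H2-Q4: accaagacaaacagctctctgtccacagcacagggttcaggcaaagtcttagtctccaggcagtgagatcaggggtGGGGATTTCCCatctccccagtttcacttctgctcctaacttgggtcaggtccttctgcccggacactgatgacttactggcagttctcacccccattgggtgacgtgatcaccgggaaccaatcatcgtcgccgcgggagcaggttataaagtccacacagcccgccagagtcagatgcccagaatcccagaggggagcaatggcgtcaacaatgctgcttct
Psmb8: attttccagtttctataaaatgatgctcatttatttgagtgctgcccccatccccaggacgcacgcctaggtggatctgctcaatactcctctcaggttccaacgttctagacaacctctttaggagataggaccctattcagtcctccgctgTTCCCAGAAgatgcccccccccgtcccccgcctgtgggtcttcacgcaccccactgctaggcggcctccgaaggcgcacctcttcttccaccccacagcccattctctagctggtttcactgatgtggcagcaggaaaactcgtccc
Tap1: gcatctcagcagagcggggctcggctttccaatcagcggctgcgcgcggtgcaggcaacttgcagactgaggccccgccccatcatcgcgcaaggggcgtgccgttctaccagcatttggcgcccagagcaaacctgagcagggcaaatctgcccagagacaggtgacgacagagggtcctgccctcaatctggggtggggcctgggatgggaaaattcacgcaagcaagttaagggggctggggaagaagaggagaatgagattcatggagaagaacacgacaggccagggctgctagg
Psmb9 is read from the opposite strand of the Tap1 window. Its own window (chr17:34187281-34187580, minus strand) shares 275 of its 300 bases with that of Tap1, and both start sites lie 226 bases apart. The windows of Tapbp, Psmb9, Psmb10 and Psme2 held no match either. Of all 32851 windows of this length, 3.44% hold the ISRE letters, 8.30% the GAS letters and 8.46% the NF-kB letters. A match describes letters only. Only these fixed letters within 300 bases were searched, so a window without a match may still hold a variant or more distant site.

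**Figure D1:**
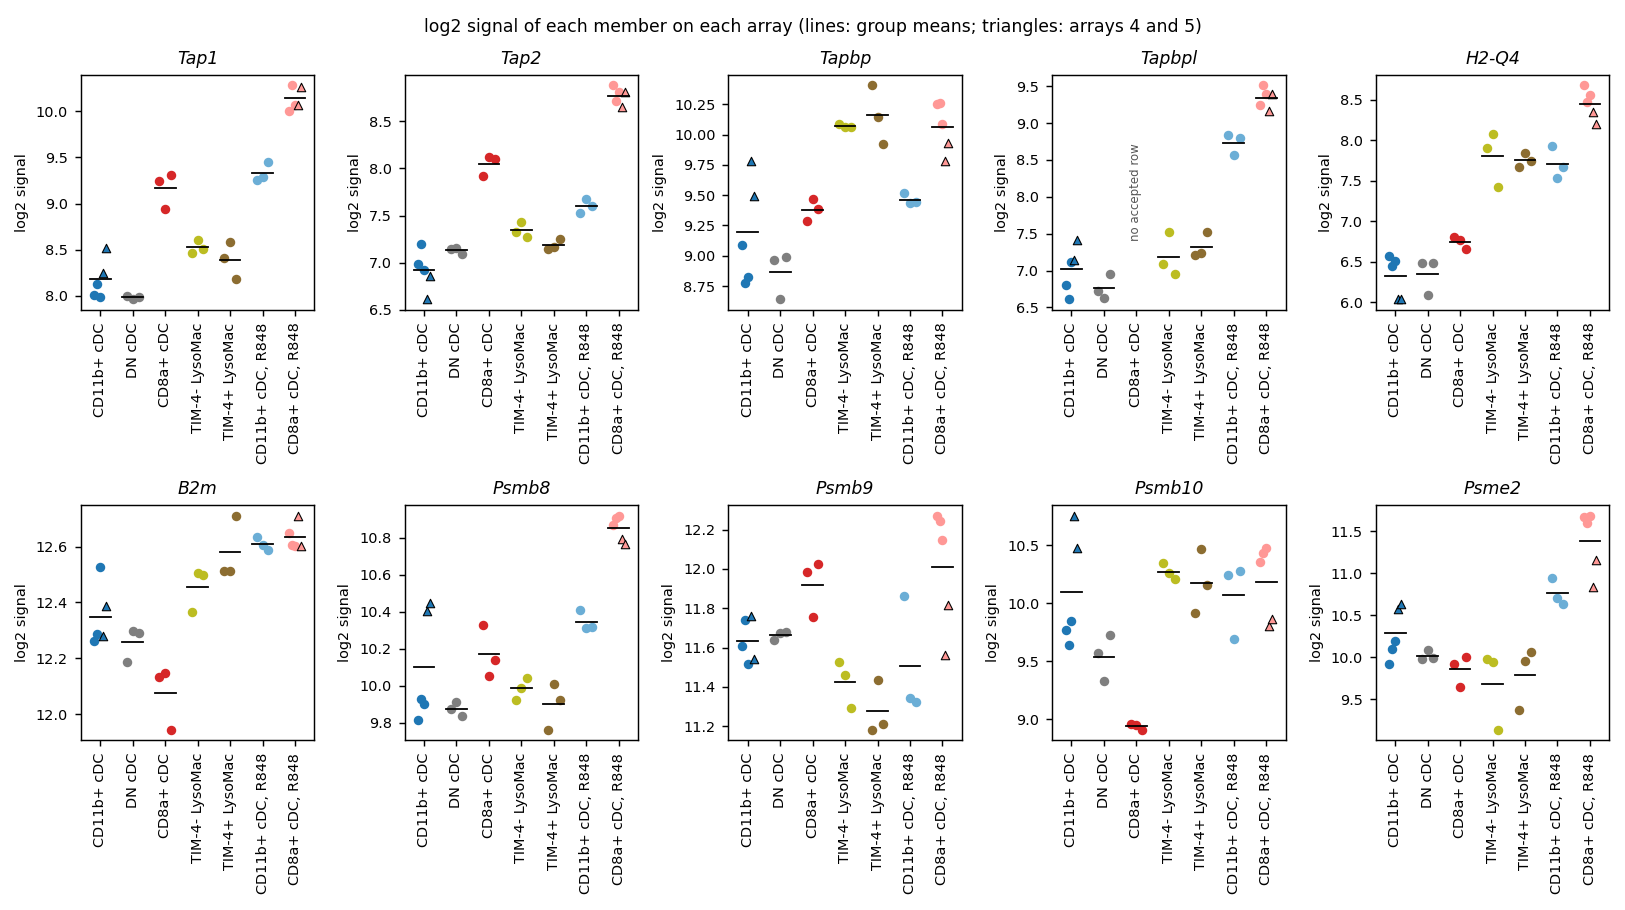
log2 signal (vertical axes) of the 10 members on each of the 25 arrays, by group, with points for arrays, triangles for arrays 4 and 5 of the groups of 5, and lines for group means. R848-treated CD8a+ cDC had the highest mean for 8 of the members, all but Tapbp and Psmb10, and Tapbpl has no accepted row in untreated CD8a+ cDC.

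Tap1 and Tap2 encode the 2 chains of the peptide transporter. At rest, Tap1 had log2 signals of 8.01, 8.12, 7.99, 8.25 and 8.52 in CD11b+ cDC and of 8.00, 7.96 and 7.99 in DN cDC. It had 9.24, 8.95 and 9.31 in CD8a+ cDC, above every array of the other untreated groups. TIM-4- LysoMac had 8.46, 8.61 and 8.51, and TIM-4+ LysoMac had 8.41, 8.59 and 8.19, which overlap with CD11b+ cDC. After R848, Tap1 was at 9.25, 9.29 and 9.45 in CD11b+ cDC, and CD8a+ cDC had 10.003, 10.28, 10.07, 10.07 and 10.26. No array of either R848 group overlapped with its untreated group. The order of the group means ran from R848-treated CD8a+ cDC (10.14) to DN cDC (7.98), and neighbours overlapped except below R848-treated CD8a+ cDC and below untreated CD8a+ cDC.

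Called here means an adjusted p under 0.05 in limma, with Benjamini-Hochberg adjustment over all genes of the fit. Tap1 rose after R848 by 1.15 ± 0.11 log2 units in CD11b+ cDC (SE, 3 against 5 arrays, 2.22-fold, adjusted p = 5.3e-08). It rose by 0.97 ± 0.11 in CD8a+ cDC (5 against 3 arrays, 1.96-fold, adjusted p = 3.4e-07). The responses differed by -0.18 ± 0.16 (95% confidence interval -0.51 to 0.15, adjusted p = 0.40), which was not called. After cyclic loess this difference was -0.43 (adjusted p = 0.042) and after quantile normalization -0.55 (adjusted p = 0.0091), so its call depended on the scaling.

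As for Tap1, every untreated CD8a+ array had more Tap2 signal than every other untreated array. Untreated CD11b+ cDC had 6.99, 7.20, 6.92, 6.61 and 6.86, and CD8a+ cDC had 7.92, 8.12 and 8.10, with no overlap. R848 moved these to 7.53, 7.67 and 7.61 in CD11b+ cDC and to 8.88, 8.71, 8.81, 8.65 and 8.81 in CD8a+ cDC. Untreated CD8a+ cDC thus lay above R848-treated CD11b+ cDC on every array. The difference between both lineages was 1.13 ± 0.09 at rest (2.19-fold, adjusted p = 1.9e-09) and 1.17 ± 0.07 after R848 (2.25-fold, adjusted p = 4.2e-05). Tap2 rose by 0.68 ± 0.09 in CD11b+ cDC and by 0.72 ± 0.09 in CD8a+ cDC (adjusted p = 4.7e-06 and 1.3e-06). The responses differed by 0.04 ± 0.13 (95% confidence interval -0.23 to 0.31). For Tap1 the lineage difference was 0.99 ± 0.11 at rest (adjusted p = 3.9e-07) and 0.81 ± 0.09 after R848 (adjusted p = 7.6e-04).

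Tapbp encodes tapasin, which bridges the transporter and the class I heavy chain, and Tapbpl encodes TAPBPR, a related peptide editor that works outside the loading complex. Tapbp was at 10.09, 10.06 and 10.06 in TIM-4- LysoMac and at 10.41, 10.14 and 9.93 in TIM-4+ LysoMac. Untreated CD11b+ cDC had 9.09, 8.77, 8.83, 9.78 and 9.50, the last pair being arrays 4 and 5, and DN cDC had 8.97, 8.64 and 8.99. Every LysoMac array lay above every untreated cDC array, and CD8a+ cDC, at 9.29, 9.47 and 9.38, lay within the range of CD11b+ cDC. The difference of LysoMac from CD11b+ cDC was 0.92 ± 0.17 (6 against 5 arrays, 1.89-fold, adjusted p = 7.4e-04). It was 1.22 ± 0.12 without arrays 4 and 5.

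After R848, Tapbp was at 9.52, 9.43 and 9.44 in CD11b+ cDC, within the range of the untreated CD11b+ arrays. It was at 10.25, 10.26, 10.08, 9.78 and 9.93 in CD8a+ cDC, above all untreated CD8a+ arrays. It rose in CD8a+ cDC by 0.68 ± 0.17 (1.60-fold, adjusted p = 0.0024). In CD11b+ cDC the change was 0.27 ± 0.17 (adjusted p = 0.22). Without arrays 4 and 5 it was 0.57 ± 0.12 and called (adjusted p = 7.9e-04). The difference of the responses, 0.41 ± 0.25 (95% confidence interval -0.10 to 0.92), was not called.

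Tapbpl was at 6.80, 6.61, 7.11, 7.14 and 7.42 in untreated CD11b+ cDC and at 8.83, 8.57 and 8.79 after R848. All R848 arrays were higher. Because it has no value in untreated CD8a+ cDC, it was fitted in the CD11b+ cDC arrays alone, where it rose by 1.71 ± 0.18 (3.28-fold, adjusted p = 1.8e-04). In that fit 32.7% of 16013 genes were called. R848-treated CD8a+ cDC had 9.25, 9.51, 9.40, 9.16 and 9.40, higher than R848-treated CD11b+ cDC by 0.61 ± 0.10 (1.53-fold, adjusted p = 0.0051). The other untreated groups lay between 6.63 and 7.52.

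H2-Q4 encodes a nonclassical class I heavy chain of the Q region, and B2m encodes beta-2 microglobulin, the light chain of class I molecules. H2-Q4 belongs to a family of near-identical genes, and signal from its relatives cannot be told apart from its own. It was at 6.57, 6.44, 6.51, 6.03 and 6.04 in untreated CD11b+ cDC, at 6.48, 6.09 and 6.48 in DN cDC and at 6.81, 6.76 and 6.66 in CD8a+ cDC. TIM-4- LysoMac had 7.91, 8.08 and 7.43 and TIM-4+ LysoMac 7.67, 7.84 and 7.74, above all untreated cDC. H2-Q4 was higher in LysoMac than in CD11b+ cDC by 1.46 ± 0.14 (2.74-fold, adjusted p = 1.55e-06), the largest difference of any member in that comparison.

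After R848, H2-Q4 was at 7.92, 7.54 and 7.67 in CD11b+ cDC and at 8.68, 8.47, 8.56, 8.35 and 8.20 in CD8a+ cDC. Among the 9 members tested in both lineages it had the largest R848 response in each. Without arrays 4 and 5, Tap1 (1.29) exceeded it (1.20) in CD11b+ cDC. Tapbpl, fitted in CD11b+ cDC alone, rose by more there (1.71, and 1.89 without arrays 4 and 5). H2-Q4 rose by 1.39 ± 0.15 in CD11b+ cDC (2.62-fold, adjusted p = 2.4e-07) and by 1.71 ± 0.15 in CD8a+ cDC (3.27-fold, adjusted p = 4.9e-09). The responses differed by 0.32 ± 0.21 (adjusted p = 0.25), and by 0.62 ± 0.20 without arrays 4 and 5, where the call was made (adjusted p = 0.023). At rest CD8a+ cDC were higher than CD11b+ cDC by 0.42 ± 0.15 (adjusted p = 0.026), and the call was lost without arrays 4 and 5 (0.23 ± 0.14, adjusted p = 0.18). It was also lost without untreated CD11b+ array 4 or 5 alone and without untreated CD8a+ array 1 or 2 (0.35 to 0.41).

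B2m varied over a narrow range, from a lowest array of 11.95 in untreated CD8a+ cDC to a highest of 12.71, reached in TIM-4+ LysoMac and in R848-treated CD8a+ cDC. Untreated CD11b+ cDC had 12.26, 12.29, 12.53, 12.28 and 12.39, and R848 moved them to 12.63, 12.61 and 12.59. Untreated CD8a+ cDC had 12.13, 12.15 and 11.95, and R848 moved them to 12.65, 12.60, 12.60, 12.71 and 12.60. The R848 arrays of both lineages overlapped, while the untreated arrays did not. B2m rose by 0.26 ± 0.07 in CD11b+ cDC (1.20-fold, adjusted p = 0.0060) and by 0.56 ± 0.07 in CD8a+ cDC (1.47-fold, adjusted p = 1.3e-06). At rest it was lower in CD8a+ than in CD11b+ cDC, by -0.27 ± 0.07 (adjusted p = 0.0037). That direction turned to 0.11 after cyclic loess and 0.13 after quantile normalization, and neither value was called.

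Psmb8, Psmb9 and Psmb10 encode the inducible catalytic subunits of the immunoproteasome, which take the places of the standard subunits encoded by Psmb5, Psmb6 and Psmb7. Psmb10 had the widest range among them. It was at 9.77, 9.64, 9.84, 10.76 and 10.48 in untreated CD11b+ cDC and at 8.96, 8.95 and 8.91 in untreated CD8a+ cDC, below every other array of the study. After R848, CD8a+ cDC had 10.35, 10.44, 10.47, 9.81 and 9.86, and CD11b+ cDC had 10.25, 9.69 and 10.28, so both R848 groups overlapped. Psmb10 was lower in CD8a+ than in CD11b+ cDC at rest by a log2 difference of -1.16 ± 0.22 (adjusted p = 1.9e-04), and by -0.81 ± 0.15 without arrays 4 and 5. It rose after R848 in CD8a+ cDC by 1.25 ± 0.22 (2.38-fold, adjusted p = 6.4e-05). In CD11b+ cDC the value was -0.02 ± 0.22 (95% confidence interval -0.48 to 0.43, adjusted p = 0.94), and 0.32 ± 0.15 without arrays 4 and 5 (adjusted p = 0.082).

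Psmb8 was at 9.81, 9.93, 9.90, 10.41 and 10.45 in untreated CD11b+ cDC, where arrays 4 and 5 reached the level after R848 (10.41, 10.31 and 10.32). In CD8a+ cDC it was at 10.33, 10.05 and 10.14 untreated and at 10.87, 10.91, 10.92, 10.79 and 10.77 after R848, with no overlap. It rose in CD8a+ cDC by 0.68 ± 0.12 (1.60-fold, adjusted p = 5.5e-05). In CD11b+ cDC the change was 0.25 ± 0.12 (adjusted p = 0.098), and 0.47 ± 0.08 without arrays 4 and 5 (adjusted p = 1.2e-04).

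Psmb9 was at 11.61, 11.74, 11.51, 11.76 and 11.54 in untreated CD11b+ cDC and at 11.86, 11.34 and 11.32 after R848. In CD8a+ cDC it was at 11.98, 11.76 and 12.02 untreated and at 12.27, 12.24, 12.15, 11.56 and 11.82 after R848. Treated and untreated arrays overlapped in both lineages. Neither change was called, at -0.12 ± 0.14 (95% confidence interval -0.42 to 0.17) and 0.09 ± 0.14 (-0.21 to 0.38). The change in CD8a+ cDC was 0.30 ± 0.12 and called without arrays 4 and 5 (adjusted p = 0.047). Tap1, which shares its promoter window with Psmb9, rose in both lineages. The difference between these genes' responses was not tested.

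Psme2 encodes the beta subunit of PA28, the activator that caps the proteasome and is induced by interferon gamma. It was at 9.92, 10.10, 10.19, 10.58 and 10.63 in untreated CD11b+ cDC and at 10.94, 10.71 and 10.63 after R848, which meet at 10.63. In CD8a+ cDC it was at 9.91, 9.65 and 10.004 untreated and at 11.67, 11.60, 11.69, 10.83 and 11.16 after R848, with no overlap. Psme2 rose in CD8a+ cDC by 1.53 ± 0.22 (2.89-fold, adjusted p = 4.8e-06). In CD11b+ cDC the change was 0.47 ± 0.22 (1.39-fold, adjusted p = 0.085), and 0.69 ± 0.19 without arrays 4 and 5 (adjusted p = 0.0075). Its partner Psme1, the alpha subunit, rose by 0.34 ± 0.07 in CD11b+ and 0.30 ± 0.07 in CD8a+ cDC.

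In LysoMac against CD11b+ cDC at rest, 3 of the 10 members were higher and 2 were lower, where 26.7% of 16013 genes were called (12.3% higher and 14.4% lower). H2-Q4 and Tapbp were described above, and Tap2 was higher by 0.35 ± 0.09 (adjusted p = 0.0086). Psme2 was lower by a log2 difference of -0.55 ± 0.18 (adjusted p = 0.037) and Psmb9 by -0.28 ± 0.07 (adjusted p = 0.011). The median member differed by 0.20, against -0.01 for all genes. The Psme2 call was lost without arrays 4 and 5 (-0.33 ± 0.19, adjusted p = 0.28) and without any of CD11b+ array 3, 4 or 5, TIM-4- array 3 or TIM-4+ array 1 (-0.57 to -0.41). Psmb9 was not called after cyclic loess (0.017) or quantile normalization (-0.19, adjusted p = 0.11). Tap1 and B2m were called higher in both, and Psme2 lost its call after cyclic loess (-0.31). Without arrays 4 and 5, Tap1 (0.42 ± 0.09) and Psmb10 (0.48 ± 0.12) were higher as well.

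The standard proteasome was lower in LysoMac than in CD11b+ cDC. Of all genes, 14.4% were lower and 12.3% higher there. All 10 measured standard 20S subunits were lower, with a median difference of -0.59, among them Psma4 (-0.74 ± 0.21), Psma1 (-0.73 ± 0.13) and Psmb2 (-0.63 ± 0.16). Psmb6 was lower by -0.57 ± 0.14 and Psmb7 by -0.60 ± 0.12, while Psmb10, which replaces Psmb7, had 0.13 ± 0.19. After the 3 rescalings 8 to 10 of the 10 were called lower and 0 higher. The assembly factor Pomp was lower by -1.13 ± 0.13, with 4 of 8 activators and assembly factors lower and 0 higher (2 lower and 1 higher after cyclic loess), and 5 of 15 subunits of the 19S regulatory particle were lower and 0 higher, although 3 were higher and 4 lower after cyclic loess. Of the other class I heavy chains, 5 of 10 were higher, led by H2-T24 (1.84 ± 0.17), Mr1 (1.15 ± 0.13) and H2-T10 (0.93 ± 0.14). H2-K1 and H2-D1, the classical heavy chains, lie on no row with 1 symbol and were not used here. Of loading chaperones and trimming enzymes 3 of 13 were higher and 4 lower. Of 9 regulators 3 were higher and 4 lower. Among them Irf7 (2.94 ± 0.12) and Irf8 (1.86 ± 0.19) were higher and Ciita, the activator of class II genes, was lower (-4.13 ± 0.09).

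Between TIM-4+ and TIM-4- LysoMac, no difference in a member was called by limma (0 of 10 called, 0 of 10 at an unadjusted p under 0.05, where 0.281% of genes were called, 0.0999% higher and 0.181% lower). The differences ran from -0.16 ± 0.12 for Tap2 to 0.13 ± 0.20 for Tapbpl. The arrays did not overlap for Tap2 and B2m, and the share of all genes without overlap is not given here. Of the other class I pathway genes, Ciita alone was called, lower by -0.72 ± 0.12. DN and CD11b+ cDC also had 0 of 10 members called by limma (1 at an unadjusted p under 0.05, where 3.25% of genes were called, 1.99% higher and 1.26% lower). That gene was Psmb10, with -0.56 ± 0.23 (adjusted p = 0.27), and -0.21 ± 0.14 without arrays 4 and 5.

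**Figure D2:**
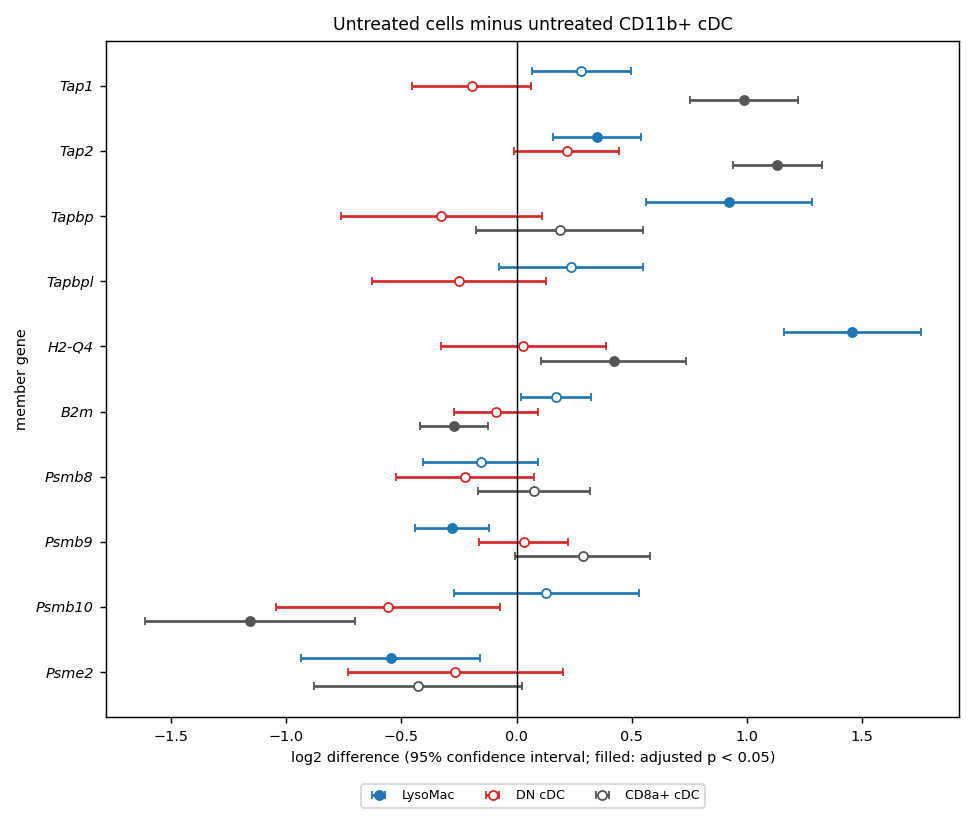
log2 difference of each member (horizontal axis, 95% confidence intervals) between untreated LysoMac, DN cDC or CD8a+ cDC and untreated CD11b+ cDC, with filled points for adjusted p under 0.05. H2-Q4 and Tapbp were higher in LysoMac, Tap1 and Tap2 in CD8a+ cDC, and no DN cDC point is filled.

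In untreated CD8a+ against CD11b+ cDC, 3 of 9 members were higher (Tap2, Tap1 and H2-Q4) and 2 lower (Psmb10 and B2m), where 48% of 13541 genes were called. The background is uneven, with 9.15% of genes higher and 38.8% lower. The median gene differed by -0.19 in this comparison, by 0.18 in the R848 response of CD8a+ cDC and by 0.21 in the difference of both responses. Relative to it, Tap2 differed by 1.32, Tap1 by 1.18, H2-Q4 by 0.61, B2m by -0.08 and Psmb10 by -0.97. Of the genes called, 19.1% were higher as deposited, 60.9% with arrays shifted to equal medians, 51.9% with quantile normalization and 49.8% with cyclic loess. Psmb9 was called higher after each rescaling (0.54 to 0.64), and B2m lost its call in each. Tapbp (0.47 and 0.49) and Psmb8 (0.38 and 0.37) were called higher after cyclic loess and quantile normalization, which gave 6 members higher and 1 lower. Of 13541 genes, 2521 were higher and 2538 lower after cyclic loess, and 2657 and 2462 after quantile normalization. Without arrays 4 and 5, Tapbp (0.48 ± 0.12) and Psmb8 (0.29 ± 0.08) were higher and H2-Q4 was not called. Irf8, which CD8a+ cDC are known to need, was higher by 3.13 ± 0.19 and Irf7 by 1.44 ± 0.15. Of 9 standard 20S subunits 4 were lower and 0 higher as deposited, against 1 lower and 1 to 3 higher after rescaling. Psme1 was higher by 0.42 ± 0.07. Of 12 listed genes linked to cross-presentation, 6 had a value here, and 0 of these were higher and 5 lower as deposited. Cybb (-4.87 ± 0.33), Hvcn1 (-1.58 ± 0.23) and Ncf1 (-1.42 ± 0.11) had the largest differences.

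After R848, 4 of 9 members rose in CD11b+ cDC (H2-Q4, Tap1, Tap2 and B2m) and 0 fell, where 41.1% of genes were called, 17.3% higher and 23.8% lower. Tapbpl, outside these 9, rose in the fit of CD11b+ cDC alone (1.71), where 32.7% of genes were called. The median member changed by 0.27 and the median gene by -0.04. Without arrays 4 and 5, 7 members rose, adding Tapbp, Psmb8 and Psme2, with 43.3% of genes called. In CD8a+ cDC, 8 of 9 members rose, all but Psmb9, where 56.3% of genes were called, 41.5% higher and 14.7% lower. The median member changed by 0.72 and the median gene by 0.18. The same 8 were called after each rescaling, where 5633 to 6013 of 13541 genes were called. Psmb9 joined them without arrays 4 and 5, with 53.3% of genes called. Of the genes called, 73.8% were higher in CD8a+ cDC as deposited and 50.3% to 51.1% after rescaling. In CD11b+ cDC these shares were 42.0% and 50.6% to 57.1%. The B cell gene Cd79a was higher in both R848 groups, as given above, and its part in these counts was not tested.

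**Figure D3:**
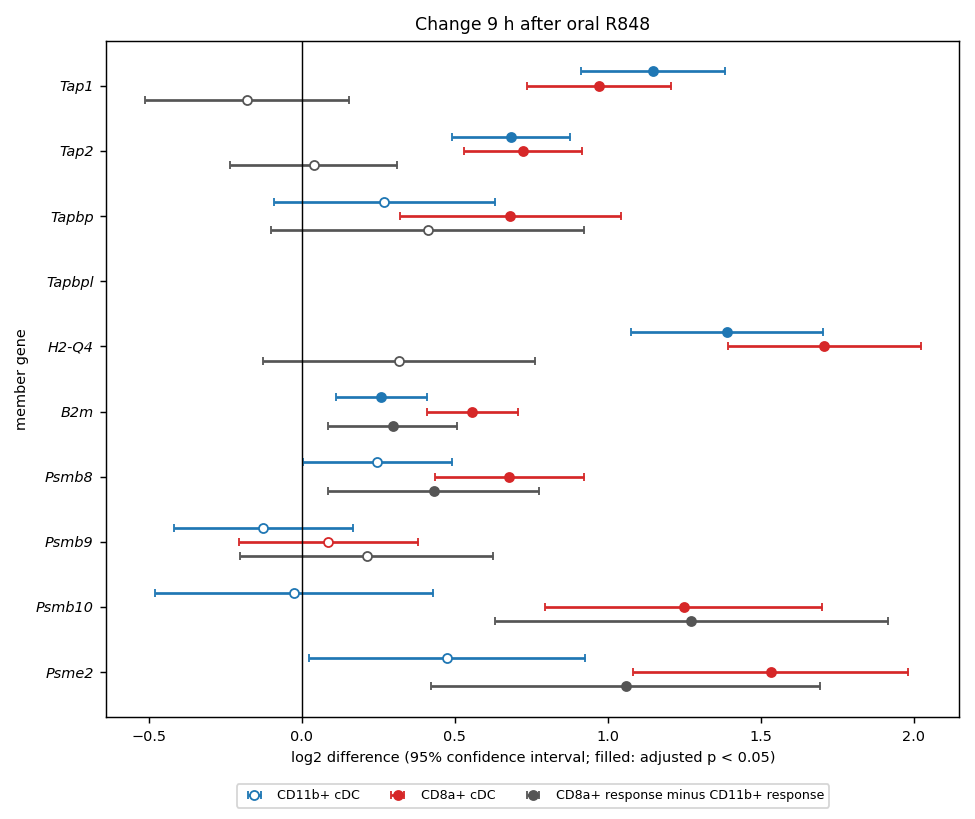
log2 change of each member 9 h after R848 (horizontal axis, 95% confidence intervals) in CD11b+ cDC and CD8a+ cDC, and the difference between both changes, with filled points for adjusted p under 0.05. H2-Q4, Tap1, Tap2 and B2m rose in both lineages, Psmb8, Psmb10, Psme2 and Tapbp were called in CD8a+ cDC alone, and Tapbpl could not be drawn.

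The responses of CD8a+ and CD11b+ cDC were compared in the same fit. For 4 of 9 members the response was larger in CD8a+ cDC, where 33.9% of genes were called, 27.5% with a larger response in CD8a+ cDC and 6.38% with a smaller one. These were Psmb10 (1.27 ± 0.31, adjusted p = 0.0034), Psme2 (1.06 ± 0.31, adjusted p = 0.011), Psmb8 (0.43 ± 0.17, adjusted p = 0.049) and B2m (0.30 ± 0.10, adjusted p = 0.028). Relative to the median gene these were 1.06, 0.85, 0.22 and 0.09. Only the call of Psmb10 held under every rescaling, at 1.02 after shifts to a common median, 0.98 after cyclic loess and 0.90 after quantile normalization. Psme2 was at 0.81 (adjusted p = 0.067), 0.75 (0.040) and 0.70 (0.058). B2m turned to -0.098 after cyclic loess and -0.19 after quantile normalization, and Psmb8 was at 0.18, 0.13 and 0.015, none called. Without arrays 4 and 5, Psmb10 was at 1.16 ± 0.21 and Psme2 at 1.11 ± 0.27, both called, while B2m (0.29, adjusted p = 0.062) and Psmb8 (0.26, adjusted p = 0.077) were not. T cell markers, dim in both R848 groups as given above, moved with this difference. The response was larger in CD8a+ cDC for 4 of 5 and smaller for 0 (median 1.98), and their part in the difference was not tested. Markers of the sorted lineages moved as well. The response was larger in CD8a+ cDC for 6 of 6 CD11b+ cDC markers (median 2.10). For 5 CD8a+ cDC markers it was larger for 1 and smaller for 4 (median -2.08). The part of these shifts in the member differences was not tested. Psmb8 lost its call without any of 11 arrays, among them all 3 of R848-treated CD11b+ cDC (0.34 to 0.46) and B2m without untreated CD8a+ array 3 or R848-treated CD11b+ array 2 or 3 (0.23 to 0.30). Of all genes called, 81.2% had a larger response in CD8a+ cDC as deposited and 43.8% to 48.7% after rescaling.

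**Figure D4:**
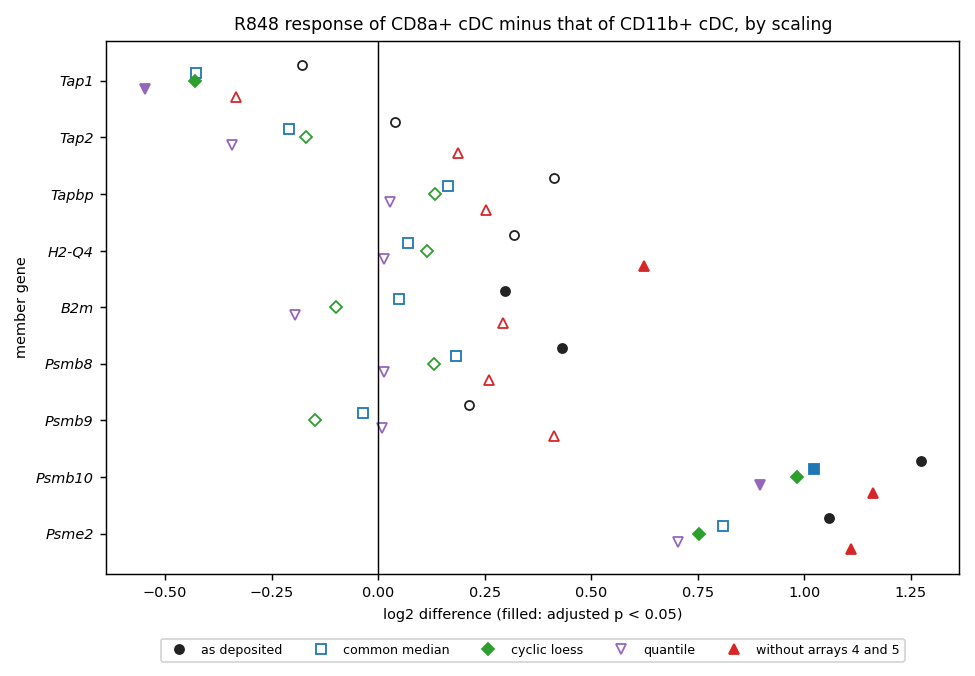
Difference of the R848 response of CD8a+ cDC from that of CD11b+ cDC (horizontal axis, log2 units) for 9 members, as deposited, under 3 rescalings and without arrays 4 and 5, with filled points for adjusted p under 0.05. Psmb10 stays between 0.90 and 1.27 with every point filled, while B2m and Psmb8 are filled only as deposited.

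The comparison of CD8a+ with CD11b+ cDC after R848 lies within the arrays that the row names fit and needed no matching. Of the 10 members 6 were higher in CD8a+ cDC and 0 lower, where 10.2% of 19938 genes were called, 4.87% higher and 5.29% lower. Tap2 and Tap1 led, followed by H2-Q4 (0.74 ± 0.13, adjusted p = 0.0063), Tapbpl, Tapbp (0.60 ± 0.12, adjusted p = 0.012) and Psmb8 (0.51 ± 0.06, adjusted p = 0.0015). The arrays of these 6 did not overlap between both groups, and the share of all genes without overlap is not given here. Tapbp lost its call without R848-treated CD11b+ array 2 or 3 (0.58 and 0.59). Without arrays 4 and 5, Psme2 (0.89 ± 0.10) and Psmb9 (0.71 ± 0.15) were called too. Psmb10 had 0.11 ± 0.21 and B2m 0.03 ± 0.06 (95% confidence interval -0.10 to 0.16). Of 11 genes linked to cross-presentation, 4 were higher and 4 lower. Clec9a (5.33 ± 0.21), Cybb (-2.59 ± 0.47) and Tlr3 (1.32 ± 0.27) had the largest differences.

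Standard subunits did not follow 1 pattern with their inducible counterparts. In CD11b+ cDC, Psmb6 fell after R848 by a log2 change of -0.71 ± 0.17 and Psmb7 changed by 0.16 ± 0.13 (adjusted p = 0.31). In CD8a+ cDC, Psmb6 rose by 0.41 ± 0.17 (adjusted p = 0.0498) and Psmb7 by 0.55 ± 0.13, beside 1.25 ± 0.22 for Psmb10. After R848, Psmb7 was higher in CD8a+ than in CD11b+ cDC by 0.65 ± 0.08, and Psmb5 had 0.36 ± 0.10 (adjusted p = 0.060). No row was accepted for Psmb5 among the untreated CD11b+ arrays, so its response was not compared. Its mean was 10.08 ± 0.30 (SD, n = 3) in untreated and 10.05 ± 0.15 (n = 5) in R848-treated CD8a+ cDC.

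**Figure D5:**
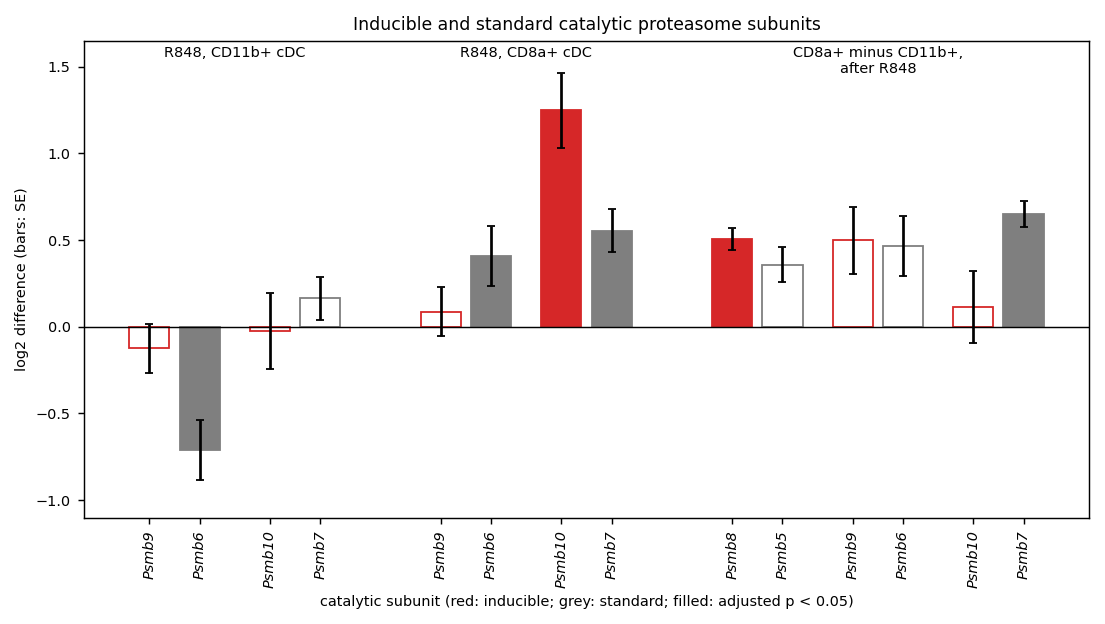
log2 difference (vertical axis, bars with SE) of inducible catalytic subunits (red) and the standard subunits they replace (grey) in both R848 responses and between both lineages after R848, with filled bars for adjusted p under 0.05. Psmb9 and Psmb10 are drawn in each comparison with Psmb6 and Psmb7. Psmb8 and Psmb5 are drawn only between lineages after R848. In CD8a+ cDC, Psmb10 (1.25) and Psmb7 (0.55) both rose, and in CD11b+ cDC Psmb6 fell (-0.71).

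Among the other class I pathway genes, R848 raised 5 of 9 heavy chains in CD11b+ cDC and lowered 1, led by H2-T24 (1.496 ± 0.24), H2-M2 (1.49 ± 0.22) and H2-T10 (1.23 ± 0.16). In CD8a+ cDC 4 rose and 1 fell, led by H2-M2 (0.83 ± 0.22), H2-Q10 (0.71 ± 0.07) and H2-Q2 (0.71 ± 0.11). Over all genes, 17.3% rose and 23.8% fell in CD11b+ cDC, and 41.5% rose and 14.7% fell in CD8a+ cDC. The heavy chain count in CD8a+ cDC was near that share. Standard 20S subunits had 0 of 9 higher and 4 lower in CD11b+ cDC and 5 higher and 0 lower in CD8a+ cDC. Their response was larger in CD8a+ cDC for 5 of 9, against 27.5% of all genes. After rescaling, 3 rose and 0 fell in CD8a+ cDC, 0 to 2 rose and 4 fell in CD11b+ cDC, and the response was larger for 2 to 4. The 19S particle had 4 of 14 higher and 6 lower in CD11b+ cDC and 9 higher and 1 lower in CD8a+ cDC. The balance in CD11b+ cDC turned to 6 higher and 3 lower after cyclic loess and 6 and 4 after quantile normalization, while CD8a+ cDC had 8 higher and 1 to 2 lower after each rescaling. The value of the 19S gene Psmd11 in the untreated CD8a+ arrays differed by -4.01 from CD11b+ cDC and lay beside a break in the row matching, so a neighbouring row may have been read, and it counts in the CD8a+ figures. After R848, 6 of 14 standard 20S and 7 of 20 19S subunits were higher in CD8a+ than in CD11b+ cDC and 0 lower, in the arrays that needed no matching. There, 4.87% of all genes were higher and 5.29% lower. Peptide loading chaperones and trimming enzymes had 1 of 9 higher and 2 lower in CD11b+ cDC and 2 higher and 2 lower in CD8a+ cDC. Genes linked to cross-presentation had 0 of 6 higher and 2 lower in CD11b+ cDC and 3 higher and 1 lower in CD8a+ cDC.

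Among regulators, Irf7, a transcription factor of the interferon response, rose by 3.80 ± 0.15 in CD11b+ and 3.65 ± 0.15 in CD8a+ cDC, and the responses differed by -0.15 ± 0.21 (adjusted p = 0.60). Irf1, which is known to bind class I promoters, rose by 1.55 ± 0.16 and 2.36 ± 0.16, a difference of 0.81 ± 0.23 (adjusted p = 0.0091). Stat2 rose by 0.61 ± 0.11 and 1.19 ± 0.11. Irf8 moved in opposite directions, by 0.63 ± 0.19 in CD11b+ cDC and -1.45 ± 0.19 in CD8a+ cDC (adjusted p = 0.0099 and 1.4e-06). Ciita fell in both, with log2 changes of -1.01 ± 0.12 and -2.78 ± 0.12. Nlrc5, the class I counterpart of Ciita, could not be placed in untreated CD11b+ cDC. Its mean was 6.14 ± 0.24 (SD, n = 3) in untreated and 8.39 ± 0.58 (n = 5) in R848-treated CD8a+ cDC, and 7.52 ± 0.66 (n = 3) in R848-treated CD11b+ cDC.

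Averaged over the 9 members with a value in every group, the level ran from 9.30 in DN cDC, 9.45 in CD11b+ cDC and 9.59 in CD8a+ cDC to 9.69 in TIM-4+ LysoMac and 9.73 in TIM-4- LysoMac. After R848 it was 9.93 in CD11b+ and 10.5 in CD8a+ cDC. Outside the class I lists, the genes whose 7 group means followed this profile most closely among 4307 genes were Agap1 (Pearson r = 0.993), Nrde2 (0.986), Gtdc1 (0.986), Plagl2 (0.985) and Sppl2a (0.983). The groups share arrays and sets, and this is a description of 7 points.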

How the data were processed

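The authors deposited log2 signals, computed with RMA in Affymetrix Expression Console 1.4.1 per the submitters' processing notes. The sources used here do not say whether the 25 arrays were normalized in 1 run, nor the annotation build. RNA (2 to 20 ng) was amplified, per the labels' protocols. Array medians were 4.29 to 4.60, and no depth applies to arrays, so their number limits the precision.

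The columns held 3 row orders: arrays of a set correlated over rows at 0.939 or more, and arrays of different sets at 0.0520 or less. Rows were matched by monotone dynamic programming over 28939 rows, and 22126 (set of 14 arrays) and 22505 (untreated CD8a+) were accepted where 3 settings agreed, no gap lay within 3 rows and neighbours over 21 rows correlated at 0.7 or more. Rolled out of place, 23 and 56 rows were accepted. In a simulation that matched the R848 groups to each other, with 500 rows removed and inserted, at most 1.71% of accepted rows were wrong. That setting lacks the differences in treatment and column set, so it does not bound the error for the untreated arrays.

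Where a gene had several 1-symbol transcript clusters, that measured in the largest number of arrays was used, with ties settled by the higher mean. Group means were compared with limma 3.58.1 in R 4.3.3 (lmFit, eBayes, two-sided), in the 14 untreated arrays (LysoMac and DN comparisons), the 8 R848 arrays, or all 25 arrays. On simulated data with 200 genes changed by 1 log2 unit, 153 (difference of responses) to 192 (LysoMac against CD11b+ cDC) were recovered. The series calls replicates independent. The members, lists and named-gene rule (all members, regulators, Psmb5 to Psmb7 and Psme1, and at most the 3 called genes of a list with the largest difference) were chosen with earlier results of these data known. Alternatives covered scaling, samples fitted, array weights, replicate block, dim genes, variance trend, row matching, transcript clusters and each array left out, and, chosen after seeing the data, arrays 4 and 5 left out together.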

Additional observations from a re-analysis of the deposited data

Results flagged for a closer look

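The R848 response differed between both cDC lineages by the test of the difference itself in 4 members, larger in CD8a+ cDC by 1.27 log2 units for Psmb10, 1.06 for Psme2, 0.43 for Psmb8 and 0.30 for B2m. The Psmb8 and B2m calls were lost after each rescaling and without arrays 4 and 5, and B2m turned to -0.098 after cyclic loess and -0.19 after quantile normalization. The median gene differed by 0.21 in the same direction. Among 20 tests of 10 members in both groups of 5 arrays, 0 single arrays lay apart from the rest of their group by Dixon's criterion, which chance meets in about 1 of 20.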

How the results depend on the processing

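Over all comparisons, the members gave 1502 values under alternatives, of which 1350 kept their direction and side of the threshold, 49 lost a call, 56 gained one and 47 turned direction. The count of members that rose after R848 in CD11b+ cDC went from 4 to 7 after cyclic loess, after quantile normalization, with array weights and without arrays 4 and 5. Of 13541 genes, 5570 were called as deposited and 5509, 5578, 6107 and 5858 under these settings. The count with differing R848 responses went from 4 to 1 after shifts to a common median, to 2 after quantile normalization (Psmb10 larger and Tap1 smaller in CD8a+ cDC) and to 2 with dim genes left out. Of 13541 genes, 4586 were called as deposited and 3040 and 3318 after these rescalings. With dim genes left out, 2128 of 5570 were called. Leaving out 1 array in turn gave 5 to 7 members called in CD8a+ against CD11b+ cDC after R848, 4 to 5 in the same comparison at rest, 4 to 6 in LysoMac against CD11b+ cDC, 4 to 6 and 8 to 8 in the R848 responses of CD11b+ and CD8a+ cDC, 2 to 4 in their difference, and 0 to 0 for DN against CD11b+ cDC and TIM-4+ against TIM-4- LysoMac. Over all genes, the numbers called were in the same order 1401 to 1949, 5254 to 6335, 3856 to 4299 and 4628 to 5479. They were 6430 to 7390, 3754 to 4606, 299 to 559 and 25 to 41 for the rest. Counts for the other alternatives stayed within 1.5 times.

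Directions turned as follows, and no turned value was called. In LysoMac against CD11b+ cDC, Psmb8 was at 0.078 (cyclic loess) and 0.063 (replicate block, and without arrays 4 and 5), and Psmb9 at 0.017 (cyclic loess). In DN against CD11b+ cDC, H2-Q4 was at -0.040 (common median), -0.057 (array weights) and -0.16 (replicate block, and without arrays 4 and 5), Psmb9 at -0.039 (common median), and B2m at 0.086 (cyclic loess) and 0.036 (quantile). In CD8a+ against CD11b+ cDC at rest, B2m was at 0.11 and 0.13. In the R848 response of CD11b+ cDC, Psmb10 was at 0.058 (common median), 0.10 (cyclic loess), 0.12 (quantile), 0.16 (array weights), 0.031 (replicate block) and 0.32 (without arrays 4 and 5). In that of CD8a+ cDC, Psmb9 was at -0.079, -0.15 and -0.00035 after the 3 rescalings. After R848, B2m was at -0.13 (cyclic loess) and -0.014 (quantile) between lineages. In the difference of responses, Tap2 was at -0.21, -0.17 and -0.34 after the 3 rescalings, Psmb9 at -0.037 (common median) and -0.15 (cyclic loess), and B2m at -0.10 (cyclic loess) and -0.19 (quantile). The cause was not tested.

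With 1 array left out, the values spanned 0 for H2-Q4 (-0.042 to 0.16) in DN against CD11b+ cDC and, between LysoMac subsets, for H2-Q4 (-0.24 to 0.083), Psmb10 (-0.24 to 0.038), Psme2 (-0.17 to 0.32) and Tapbp (-0.037 to 0.20). They also did for Psmb10 between lineages after R848 (-0.076 to 0.22), Psmb10 in the R848 response of CD11b+ cDC (-0.14 to 0.17), Psmb8 between lineages at rest (-0.0035 to 0.16) and Tap2 in the difference of responses (-0.032 to 0.12).

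Replicate numbers did not pair arrays: deviations from group means correlated at -0.23 to 0.13 between arrays of 1 number. With the number as a replicate block, the members called were 0 between LysoMac subsets, 6 in LysoMac and 0 in DN against CD11b+ cDC, 4 and 7 between lineages at rest and after R848, 5 and 8 in the R848 responses of CD11b+ and CD8a+ cDC and 3 in their difference. Over all genes, in the same order, 63, 4026 and 465 of 16013, 6151 of 13541 and 1505 of 19938 were called. For the responses and their difference, 5496, 7150 and 3853 of 13541 genes were called. Stricter row matching gave no value for Psme2 where untreated CD8a+ arrays enter, and does not apply to the R848 arrays.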
